A study of Homo sapiens with 8 samples.

Results

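COMPASS complexes place methyl groups on lysine 4 of histone H3 (H3K4). The 10 genes described here encode the 6 catalytic subunits KMT2A, KMT2B, KMT2C, KMT2D, SETD1A and SETD1B and the 4 subunits of the core that all of these complexes share, WDR5, ASH2L, RBBP5 and DPY30. They were chosen by name, with earlier results of these data known. All 10 were found among the 17546 genes measured. RNA came from H1 cells, an established human embryonic stem cell line, that received a GFP-marked lentivirus with either an shRNA against NAT10 (NAT10 knockdown, 4 libraries) or a negative control shRNA (control, 4 libraries). After 48 h the GFP-positive cells of both groups were enriched and grown with 0.5 ug/ml puromycin. NAT10 acetylates cytidines in RNA. No rescue of NAT10 is among the groups, and an effect of lower NAT10 and an unintended effect of the shRNA cannot be told apart.

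Each COMPASS complex pairs 1 SET-domain methyltransferase with the core of WDR5, RBBP5, ASH2L and DPY30, without which the SET domain is a weak enzyme. The SETD1A and SETD1B complexes place most of the trimethyl mark (H3K4me3) at promoters of active genes. KMT2A and KMT2B act at selected promoters, in embryonic stem cells also at developmental genes that carry the Polycomb mark as well, and KMT2C and KMT2D place the monomethyl mark (H3K4me1) at enhancers.

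NAT10 itself was lower in every knockdown library than in any control library. It had 1647, 1592, 1625 and 1644 normalized counts (reads divided by the authors' size factor for the library) in knockdown replicates 1 to 4, against 2207, 2285, 2048 and 2173 in control replicates 1 to 4. The knockdown mean was 74.7% of the control mean, so most NAT10 transcript was still present. The libraries held 16207254 to 16305014 reads in knockdown and 15574631 to 16045882 in control. Whether replicates were separate cultures is not stated in the labels, and the p-values below therefore cover only differences between libraries, which may be technical.

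Genes that mark the cell type were checked in the same libraries, where 32.3% of all genes were higher in knockdown and 32.4% lower (limma, adjusted p under 0.05). Of 14 embryonic stem cell markers, all were measured, 10 were higher in knockdown and 0 lower (8 higher and 3 lower with library totals as scaling), with summed levels of 155710 to 160537 normalized counts in knockdown against 125395 to 129632 in control. POU5F1, a defining factor of these cells, was counted at only 17.2 normalized counts on average in knockdown and 24.0 in control. It did not pass (limma adjusted p = 0.0642) and had as few as 13 reads in a library. SOX2, another of these markers, averaged 8068 normalized counts in knockdown and 6231 in control. Why POU5F1 was counted so low was not tested. Of 15 fibroblast and mesenchymal markers 12 were measured, and 8 were higher and 2 lower (6 and 3 with library totals; summed 40280 to 42732 in knockdown, 32164 to 33436 in control). Of 10 neuroectoderm markers only 5 were measured, without SOX1, ZIC1, LHX2, SIX3 and HES5. Of the 5 measured, 4 were higher and 0 lower (4 and 1 with library totals). Their summed level was 15507 to 16262 in knockdown and 7068 to 7531 in control. PAX6, called higher, had 22.6 to 27.4 normalized counts in knockdown and 1.92 to 3.87 in control. Every gene in the table had 10 or more reads in at least 4 libraries, which PAX6 reached only in knockdown. Its presence in the table thus favoured a call as higher. With a mean of at least 5 CPM, 3 neuroectoderm markers were higher. Of 10 mesendoderm markers only MIXL1 and CXCR4 were measured, and TBXT, EOMES, GSC, MESP1, SOX17, FOXA2, GATA4 and GATA6 are not in the table used. Both were higher, at summed levels of 107 to 131 in knockdown and 59.7 to 63.8 in control, but CXCR4 missed the threshold with library totals (limma adjusted p = 0.0526). Their part in the results below was not tested, and in bulk RNA a change in the share of cells of a type and a change in RNA per cell cannot be told apart.

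In NAT10 knockdown cells, transcripts of both SETD1 methyltransferases rose, SETD1B to 170.1% and SETD1A to 148% of the control level. KMT2D, an enhancer methyltransferase, and the core scaffold WDR5 rose to 122% and 119%. KMT2B and the core subunit ASH2L fell to 91.3% and 87.5%. KMT2A, KMT2C, RBBP5 and DPY30 did not pass the test, with means between 94.1% and 101% of control. Thus 4 of 10 members were higher, where 32.3% of all genes were higher, and 2 of 10 were lower, where 32.4% of all genes were lower (limma, adjusted p under 0.05 over all genes). In all, 6 of 10 members changed against 64.7% of all genes, which is near the background. The groups did not overlap for 6 of 10 members against 56.7% of all genes, with knockdown above control for 4 members and 28.4% of all genes and below it for 2 members and 28.3% of all genes. With edgeR on recovered reads the same members passed, 4 higher and 2 lower, against 32% and 33.2% of all genes and 65.2% in either direction. The median log2 fold change of the members was 0.0081 and that of all genes 0.0013. When libraries were scaled by their read totals instead, log2 fold changes shifted down, to a median of -0.11 over all genes. The members then counted 4 higher and 5 lower, where 23.2% of all genes were higher, 41.9% lower and 65.1% either.

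**Figure D1:**
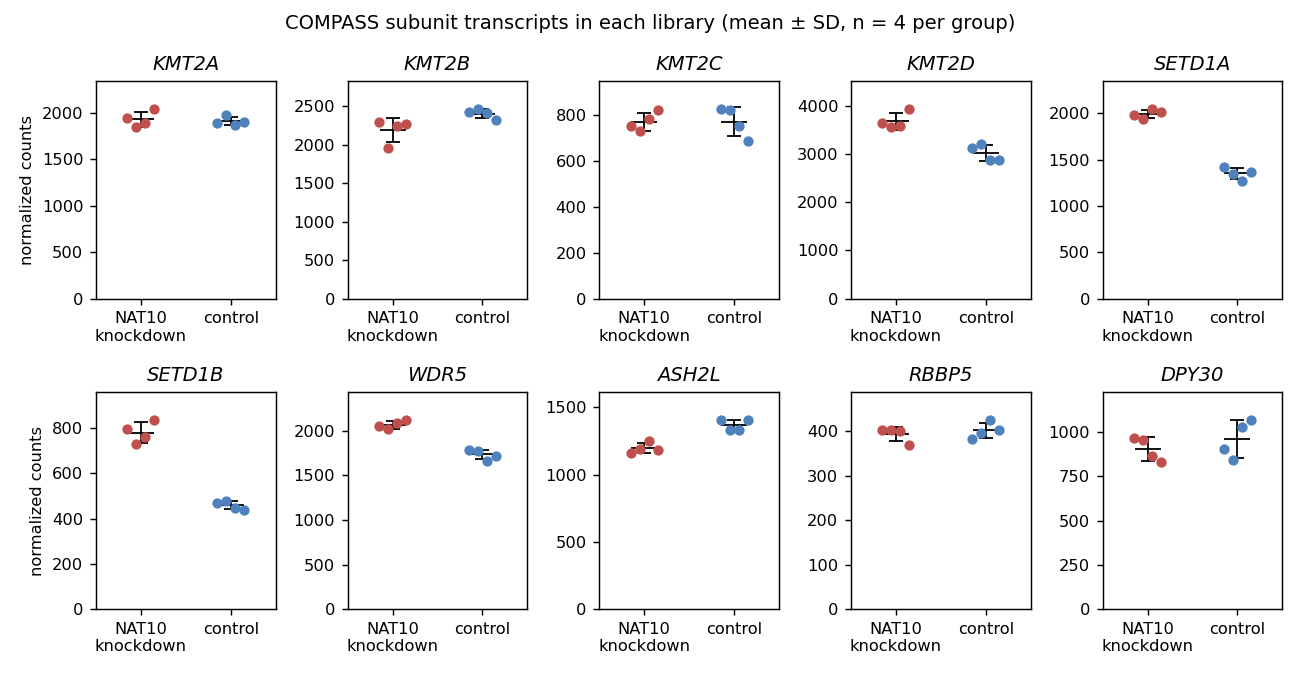
Normalized counts (vertical axis from 0) of each COMPASS subunit transcript in the 4 NAT10 knockdown libraries (red, left) and the 4 control libraries (blue, right), with mean and SD as black bars. Relative to their own level SETD1A and SETD1B show the widest gaps between the groups, KMT2D and WDR5 are higher and KMT2B and ASH2L lower with no overlap, and the groups overlap for the other members.

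SETD1B (ENSG00000139718, hg38 chromosome 12, 121804180 to 121832584, plus strand) carried the largest change of the 10 members. It had 794, 730.0, 762 and 835 normalized counts in knockdown replicates 1 to 4, against 469, 478, 449 and 439 in control replicates 1 to 4. Every knockdown library lay above every control library by a wide margin. The log2 fold change was 0.76 with a standard error of 0.052 (limma adjusted p = 3.10e-18), and 94.3% of all genes had a smaller log2 fold change. The mean level was 780.2 ± 44.8 in knockdown and 459 ± 17.8 in control (SD, n = 4 each).

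SETD1A (ENSG00000099381, chromosome 16, 30957294 to 30984664, plus strand), the paralog of SETD1B and an enzyme that early embryos and embryonic stem cells of the mouse need, rose as well. It had 1979.8, 1934, 2040.1 and 2014 normalized counts in knockdown replicates 1 to 4, against 1415, 1348, 1272 and 1366 in control replicates 1 to 4. The groups were again apart in every library, and the log2 fold change was 0.56 with a standard error of 0.039 (limma adjusted p = 5.74e-18). SETD1B rose more than SETD1A: the log2 ratio of SETD1A to SETD1B was 1.32, 1.40, 1.42 and 1.27 in knockdown replicates 1 to 4 and between 1.49 and 1.64 in the control libraries. This difference of -0.20 was larger than the spread between libraries (two-sided exact permutation p = 0.0286, also after Benjamini-Hochberg adjustment over the 3 paralog pairs compared; it is the smallest p that 4 against 4 libraries can give). A ratio within a library does not depend on the scaling.

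Among the trithorax-type enzymes, KMT2B fell and its paralog KMT2A did not pass the test. KMT2B (ENSG00000272333, chromosome 19, 35718019 to 35738878, plus strand), which in mouse embryonic stem cells places H3K4me3 at bivalent developmental promoters, had 2295, 1965, 2252 and 2278 normalized counts in knockdown replicates 1 to 4, against 2423, 2462, 2419 and 2329.5 in control replicates 1 to 4. Knockdown replicate 2 was the lowest of all, and the other knockdown libraries lay only just below the lowest control. The log2 fold change was -0.13 with a standard error of 0.040 (limma adjusted p = 0.00283), and it became -0.082 and missed the threshold without knockdown replicate 2 (adjusted p = 0.0501).

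KMT2A (ENSG00000118058, chromosome 11, 118436464 to 118526832, plus strand), the MLL gene that translocations join to other genes in acute leukaemia, had 1942, 1847, 1889 and 2033 normalized counts in knockdown replicates 1 to 4, against 1886, 1969, 1869 and 1901 in control replicates 1 to 4. The groups overlapped, and the log2 fold change of 0.015 had a 95% interval from -0.060 to 0.091 (limma adjusted p = 0.741). With library totals its value was -0.093 and passed (adjusted p = 0.0252). The 2 paralogs differed in their change: the log2 ratio of KMT2A to KMT2B was -0.24, -0.090, -0.25 and -0.16 in knockdown replicates 1 to 4 and -0.36, -0.32, -0.37 and -0.29 in control replicates 1 to 4, a difference of 0.15 with no overlap (two-sided exact permutation p = 0.0286, adjusted over 3 pairs 0.0286). The annotation places 17.9% of the exonic bases of KMT2A also in a second gene model on the same strand (AP001267.5), and the sources used here do not say how reads in shared exons were counted.

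The enhancer methyltransferases also parted. KMT2D (ENSG00000167548, chromosome 12, 49018975 to 49059774, minus strand), the gene mutated in most cases of Kabuki syndrome, had 3632, 3560.2, 3575 and 3921 normalized counts in knockdown replicates 1 to 4, against 3129.6, 3205, 2882 and 2872 in control replicates 1 to 4. All knockdown libraries were above all control libraries, and the log2 fold change was 0.28 with a standard error of 0.037 (limma adjusted p = 5.73e-09). KMT2C (ENSG00000055609, chromosome 7, 152134922 to 152436005, minus strand), its paralog, had 752, 732, 782 and 822 normalized counts in knockdown replicates 1 to 4, against 826, 822, 756 and 688 in control replicates 1 to 4. These groups overlapped throughout, and the log2 fold change of 0.00089 had a 95% interval from -0.10 to 0.10 (limma adjusted p = 0.990). Its sign turned under other scalings, and parts of KMT2C have near-identical copies elsewhere in the human genome, so its counts are uncertain.

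The log2 ratio of KMT2C to KMT2D was -2.27, -2.28, -2.19 and -2.25 in knockdown replicates 1 to 4 and -1.92, -1.96, -1.93 and -2.06 in control replicates 1 to 4. The difference of -0.28 was the largest of the 3 paralog pairs (two-sided exact permutation p = 0.0286, adjusted over the pairs 0.0286).

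Within the shared core, 1 subunit rose, 1 fell and 2 did not pass. WDR5 (ENSG00000196363, chromosome 9, 134135365 to 134159968, plus strand), a WD-repeat protein that holds the methyltransferase by its WIN motif, had 2051, 2017, 2084 and 2118 normalized counts in knockdown replicates 1 to 4, against 1781, 1771, 1666 and 1719 in control replicates 1 to 4. The groups did not overlap, and the log2 fold change was 0.25 with a standard error of 0.037 (limma adjusted p = 4.61e-08). ASH2L (ENSG00000129691, chromosome 8, 38105242 to 38144076, plus strand), which with RBBP5 activates the SET domain, moved the other way. It had 1163, 1194, 1251 and 1186 normalized counts in knockdown replicates 1 to 4, against 1406, 1335, 1334 and 1403 in control replicates 1 to 4, all knockdown libraries below all control libraries. Its log2 fold change was -0.19 with a standard error of 0.040 (limma adjusted p = 4.41e-05). The annotation holds 3 ASH2L pseudogenes (ASH2LP1, ASH2LP2 and ASH2LP3), none of them in the table used, and reads that fit both the gene and a copy make its counts uncertain too. On the opposite strand, BX649632.1 shares 11.2% of the exonic bases of WDR5, and STAR shares 5.72% of those of ASH2L. The strand setting was not given, so these overlaps may affect both counts. WDR5 is also a subunit of other chromatin complexes, and the values are of RNA and not of protein.

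RBBP5 (ENSG00000117222, chromosome 1, 205086142 to 205122015, minus strand), the WD-repeat partner of ASH2L, had 402, 402, 399 and 369 normalized counts in knockdown replicates 1 to 4, against 382, 396, 424 and 401 in control replicates 1 to 4. The groups overlapped, and the 95% interval of the log2 fold change ran from -0.15 to 0.091 around -0.029 (limma adjusted p = 0.692). With as few as 360 reads in a library, counting error alone was 5.27% of its value, the widest of the members. DPY30 (ENSG00000162961, chromosome 2, 31867809 to 32039812, minus strand), the small protein that docks on ASH2L, had 965, 955, 863 and 831 normalized counts in knockdown replicates 1 to 4, against 903, 842, 1027 and 1066 in control replicates 1 to 4. Its libraries were the most scattered, the groups overlapped, and the 95% interval ran from -0.23 to 0.063 around -0.084 (limma adjusted p = 0.305).

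Without control replicate 2, its lowest control, the log2 fold change of DPY30 was -0.14 and passed (adjusted p = 0.0212). With library totals both RBBP5 (-0.14, adjusted p = 0.0410) and DPY30 (-0.19, adjusted p = 0.0307) counted as lower. In the annotation 50.5% of the exonic bases of DPY30 also belong to MEMO1 on the same strand, so its counts depend on how the authors treated shared exons.

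**Figure D2:**
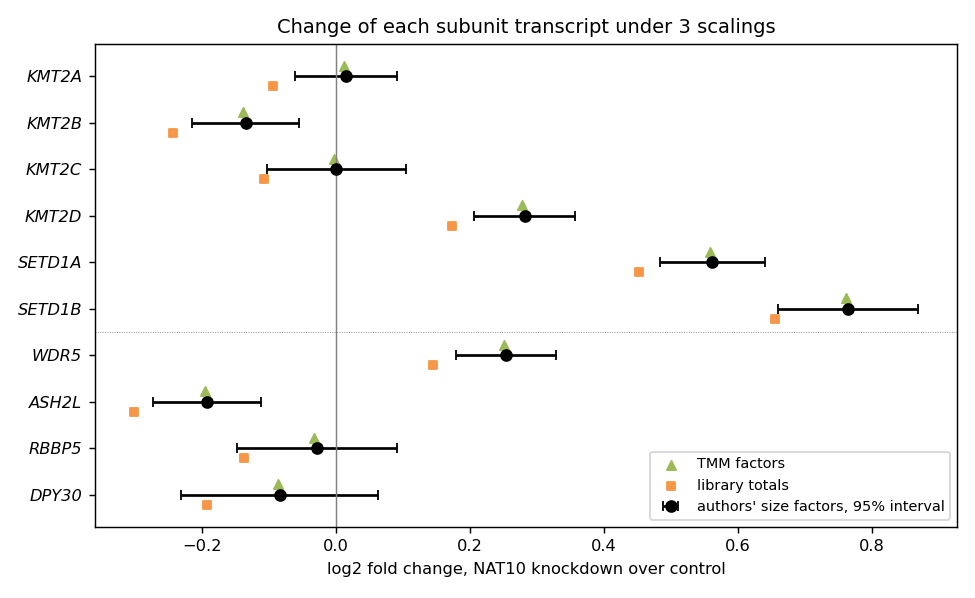
Log2 fold change of each member, NAT10 knockdown over control, with the authors' size factors (black, 95% interval), TMM factors (green triangles) and library totals (orange squares); the dotted line parts catalytic from core subunits. SETD1B (0.76), SETD1A (0.56), KMT2D (0.28) and WDR5 (0.25) stay above 0 and KMT2B and ASH2L below 0 under all of these scalings, and library totals move KMT2A and KMT2C from just above 0 to below it.

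Levels of different genes were compared per kilobase of the transcript with the longest coding sequence (normalized counts per kb). In knockdown cells the order from high to low was DPY30 with 1276, WDR5 with 656, ASH2L with 388, SETD1A with 309, KMT2B with 259, KMT2D with 189, SETD1B with 131, KMT2A with 116, RBBP5 with 89.3 and KMT2C with 45.8 normalized counts per kb. In control cells it was DPY30 with 1355, WDR5 with 550.4, ASH2L with 443, KMT2B with 284, SETD1A with 209, KMT2D with 156, KMT2A with 115, RBBP5 with 91.0, SETD1B with 76.8 and KMT2C with 45.8. Neighbours in either order did not overlap between libraries, though SETD1B and KMT2A nearly touched in knockdown (lowest 122.300 against highest 122.266). SETD1A therefore stood above KMT2B in knockdown and below it in control, and SETD1B likewise stood above KMT2A in knockdown and below it in control. Both exchanges of place also held per kilobase of all annotated exons, where SETD1A had 292 and KMT2B 214 in knockdown, against 198 and 234 in control. The order of the core did not hold on that scale, since DPY30 had 329 and WDR5 569.7 normalized counts per exonic kb in knockdown.

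As a share of the summed level per kb of the catalytic subunits, SETD1A made up 29.4% ± 0.810 in knockdown and 23.6% ± 0.867 in control, and SETD1B 12.4% ± 0.290 and 8.67% ± 0.110 (SD, n = 4 each). KMT2B made up 24.7% ± 0.962 in knockdown and 32.1% ± 0.680 in control, and KMT2A 11.0% ± 0.194 and 12.9% ± 0.313. KMT2D changed little as a share, 18.0% ± 0.530 in knockdown and 17.5% ± 0.466 in control, and KMT2C held 4.36% ± 0.107 and 5.16% ± 0.304. The SETD1 enzymes together held 41.3% to 42.5% in knockdown libraries and 31.5% to 33.0% in control libraries. Their summed level was 439 ± 12.7 per kb in knockdown and 286 ± 10.6 in control, while that of the KMT2 enzymes was 610.3 ± 30.1 and 600.5 ± 19.8. The summed core was 2409 ± 79.1 per kb in knockdown and 2439.7 ± 141 in control, and its ratio to the summed catalytic level was 2.30 ± 0.156 in knockdown and 2.76 ± 0.238 in control. The size of this ratio rests on the short transcript of DPY30. Per kilobase of all annotated exons, a scale added after seeing the data, the core summed to 1191 ± 14.4 in knockdown and 1150.2 ± 32.9 in control, and the ratio was 1.36 ± 0.0652 in knockdown and 1.57 ± 0.0891 in control. The SETD1 enzymes held 43.9% ± 0.628 of the catalytic sum in knockdown and 34.4% ± 0.861 in control on that scale. These sums are descriptions of the chosen members and were not tested.

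**Figure D3:**
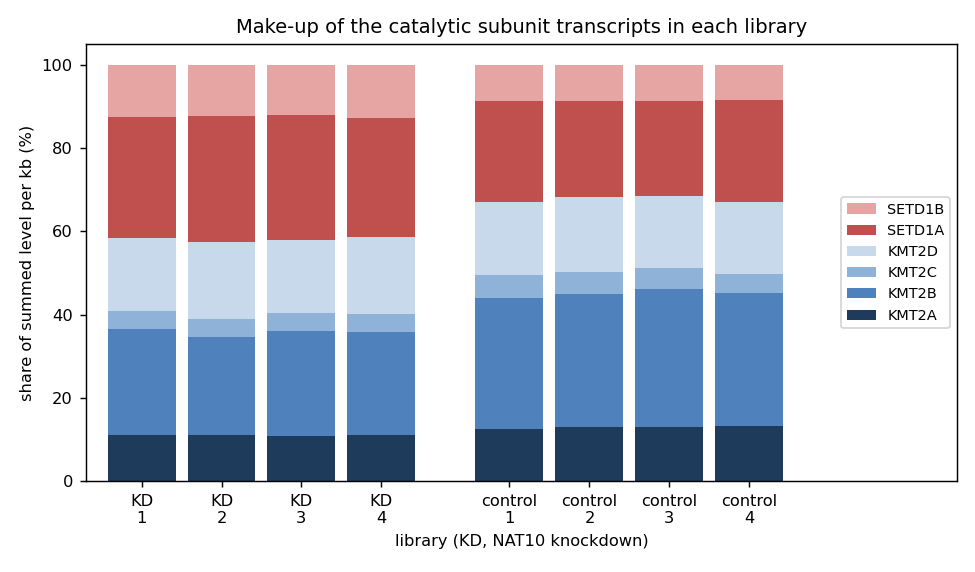
Share (%) of each methyltransferase in the summed level per kb of the 6 catalytic subunits, for each NAT10 knockdown library (left) and each control library (right). The SETD1A and SETD1B segments (red) are larger in all knockdown libraries, at 41.3% to 42.5% together against 31.5% to 33.0% in control, and the KMT2B segment is smaller.

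The transcripts of the members differ in base composition, which the choice by name did not use. The 4 that rose had a GC content of 64.8% (SETD1B), 62.3% (SETD1A), 59.1% (KMT2D) and 55.5% (WDR5). The 2 that fell had 63.5% (KMT2B) and 48.9% (ASH2L). The 4 that did not pass had the lowest values, 46.9% (KMT2A), 45.0% (KMT2C), 43.8% (RBBP5) and 41.4% (DPY30). With library totals KMT2A, RBBP5 and DPY30 passed as lower, so this grouping depends on the scaling. A link between base composition and the changes was not tested. The encoded proteins ran from 99 residues in DPY30 to 5537 in KMT2D, and the members that missed the test include both DPY30 and KMT2C with 4911 residues.

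RefSeq promoter windows (GRCh38.p14) were at hand for 7 of the 10 members. The 250 bases upstream of the RefSeq start are shown for the called members whose window holds no coding-gene exon, since KMT2D and WDR5 rose and KMT2B fell. Capitals mark motif matches on either strand.
KMT2D: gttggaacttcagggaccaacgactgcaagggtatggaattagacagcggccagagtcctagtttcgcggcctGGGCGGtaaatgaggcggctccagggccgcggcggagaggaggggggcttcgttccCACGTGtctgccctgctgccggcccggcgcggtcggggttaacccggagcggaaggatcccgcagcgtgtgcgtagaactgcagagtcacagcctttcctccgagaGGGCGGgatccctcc
WDR5: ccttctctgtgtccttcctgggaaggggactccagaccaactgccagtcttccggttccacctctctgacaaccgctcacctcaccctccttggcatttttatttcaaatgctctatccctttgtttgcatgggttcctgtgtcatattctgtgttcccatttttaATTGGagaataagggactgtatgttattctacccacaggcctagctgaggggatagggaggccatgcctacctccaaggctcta
KMT2B: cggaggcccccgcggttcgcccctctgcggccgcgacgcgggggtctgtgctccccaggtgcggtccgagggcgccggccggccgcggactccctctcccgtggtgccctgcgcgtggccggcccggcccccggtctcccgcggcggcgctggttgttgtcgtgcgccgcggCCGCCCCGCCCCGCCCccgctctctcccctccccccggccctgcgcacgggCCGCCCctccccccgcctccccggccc
The windows are chr12:49060795-49061044 on the minus strand for KMT2D, chr9:134134949-134135198 on the plus strand for WDR5 and chr19:35717753-35718002 on the plus strand for KMT2B. They end 1020, 166 and 16 bases before the gene start of the annotation used for the coordinates above, so they may not be the starts used in these cells. For each of these windows, the bases just after the RefSeq start matched no coding transcript of the gene in that annotation. The motifs searched were the GC box GGGCGG, the CCAAT box CCAAT, the E-box CACGTG and the ETS and NRF1 motifs, on both strands, and GC boxes may overlap each other. The KMT2D window held 2 GC boxes and 1 E-box, the KMT2B window 4 GC boxes, and the WDR5 window 1 CCAAT box and only 2 CpG dinucleotides, against 23 in KMT2D and 40 in KMT2B. Of all RefSeq promoter windows of this length, 42.3% held a GC box, 33.0% a CCAAT box and 6.49% an E-box, and the median window had 11 CpG dinucleotides. No ETS or NRF1 match was found in the windows of the 7 members, which 3.64% and 5.53% of all windows hold. GC boxes were found in 5 of the 7 windows, among them those of KMT2A and KMT2C, which did not pass the test. The KMT2D and WDR5 windows shared none of these motifs. No window was at hand for SETD1B, and a link between motifs and the changes was not tested.

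Each COMPASS class has partner subunits of its own. Of 12 partner genes listed and measured, 8 were higher and 1 lower with the authors' scaling (median log2 fold change 0.13), where 32.3% of all genes were higher and 32.4% lower. Only 6 were higher at an adjusted p under 0.01, without knockdown replicate 4 or without control replicate 1, since BOD1L1 and PAXIP1 lay close to the threshold. With library totals only HCFC1 and NCOA6 were higher and BOD1 and MEN1 lower (median 0.017), so the smaller rises depend on the scaling. NCOA6, a coactivator of the KMT2C and KMT2D complexes, had 1309.5, 1199.7, 1156 and 1293.5 normalized counts in knockdown replicates 1 to 4, against 558, 552, 537 and 558 in control replicates 1 to 4. Its log2 fold change of 1.17 exceeded that of every COMPASS member (limma adjusted p = 1.84e-27). HCFC1, which joins the SETD1 and the KMT2A and KMT2B complexes, had 3678.5, 3735, 3815 and 4035 normalized counts in knockdown replicates 1 to 4, against 2333, 2402, 2164 and 2305.5 in control replicates 1 to 4 (log2 fold change 0.73, limma adjusted p = 1.52e-23).

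The other partners changed less. In the SETD1 complexes, the CpG-binding subunit CXXC1 changed by 0.18 and WDR82, which ties the complex to RNA polymerase II, by 0.16 on the log2 scale, both higher with the authors' scaling and not passing with library totals. BOD1, found with SETD1B, changed by -0.20 and BOD1L1, found with SETD1A, by 0.098 with overlapping groups in BOD1L1. Of the subunits that tether KMT2A and KMT2B, PSIP1 changed by 0.14, and MEN1, the menin gene, had 1768 ± 56.5 normalized counts in knockdown and 1768 ± 37.5 in control (limma adjusted p = 0.993). Of the subunits of KMT2C and KMT2D, the H3K27 demethylase KDM6A changed by 0.14 and PAXIP1 by 0.11, and PAGR1 did not pass (-0.071). HCFC2 was scarce, at 32.5 ± 8.03 normalized counts in knockdown and 39.4 ± 12.4 in control, and did not pass.

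**Figure D4:**
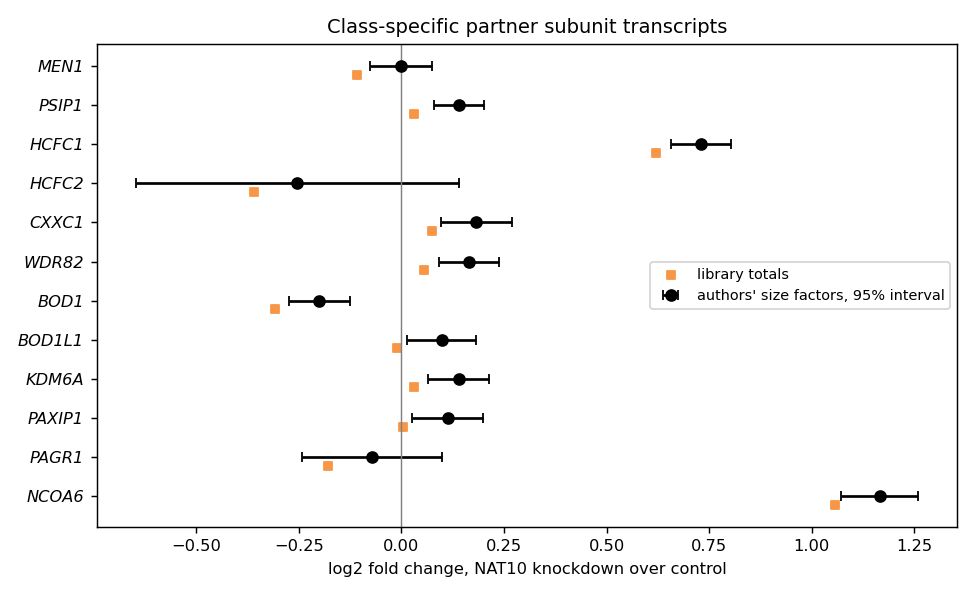
Log2 fold change, NAT10 knockdown over control, of the class-specific partner subunits with the authors' size factors (black, 95% interval) and with library totals (orange squares). NCOA6 (1.17) and HCFC1 (0.73) lie far above 0 on both scales, BOD1 (-0.20) lies below 0 on both, and library totals move most others closer to 0.

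Enzymes that act against or upstream of COMPASS moved in both directions. Over all genes 32.3% were higher and 32.4% lower, or 23.2% and 41.9% with library totals. Of 8 H3K4 demethylases and their CoREST partners, 3 were higher and 3 lower (median log2 fold change -0.025), or 2 and 4 with library totals. The 3 lower genes were all demethylases, KDM1A with a log2 fold change of -0.14, KDM1B with -0.28 and KDM5B with -0.084, and of the 5 demethylases 1 was higher, KDM5A by 0.19, which missed the threshold with library totals. Among the CoREST subunits RCOR2 was up by 0.52 and RCOR3 by 0.40. Of 11 genes of H2B ubiquitination and the PAF1 complex, which precede H3K4 methylation on transcribed genes, 7 were higher and 2 lower (median 0.20). With library totals 6 of these were higher and 2 lower. PAF1 had 1134 ± 52.8 normalized counts in knockdown and 616 ± 16.5 in control, a log2 fold change of 0.88 (limma adjusted p = 9.08e-23), and the ubiquitin-conjugating enzyme UBE2A rose by 0.39. Of 5 measured genes for other SET-domain enzymes, 1 was higher, SMYD2 by 1.53, and 3 were lower, SETD7 with a log2 fold change of -0.56 among them (median -0.19). These counted 1 higher and 4 lower with library totals.

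Of 14 genes for proteins that bind H3K4 methylation, 8 were higher and 2 lower (median 0.17). The shares over all genes were 32.3% and 32.4%. ING3 rose by 0.96 and the nucleosome remodelling subunit BPTF by 0.34. The lower ones were ING4, with a log2 fold change of -0.60 (limma adjusted p = 5.91e-10), and the demethylase PHF8 with -0.19. With library totals 5 were higher and 3 lower. Of 8 measured subunits of other WDR5-containing complexes or WDR5 relatives, 3 were higher and 2 lower (median 0.030), KANSL2 up by 0.41 and PHF20 with a log2 fold change of -0.30. These counted 2 higher and 3 lower with library totals. The near relative WDR5B had a log2 fold change of 0.030 (limma adjusted p = 0.817). Among 12 reference genes 5 were higher and 3 lower (median 0.072), or 4 and 4 with library totals. In either direction 64.7% of all genes changed. TFRC rose by 0.56 and ACTB by 0.42, both by more than KMT2D and WDR5. The rise of TFRC was about as large as that of SETD1A (0.56).

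The genes whose pattern over the 8 libraries lay closest to that of SETD1B, among 6228 genes with a mean of at least 500 normalized counts, were SH3BP4, SFPQ and SF1. Their root mean square differences from SETD1B, on the log2 scale and relative to the control mean, were 0.031, 0.036 and 0.037. With 2 groups this likeness rests mainly on the size of the change, which was 0.76, 0.75 and 0.76 on the log2 scale.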

How the data were processed

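Per the labels' protocols, poly(A) RNA libraries were read as DNA nanoballs on a BGISEQ platform. Per the submitters' processing notes, which give no order, the tools included featureCounts 2.0.3, DESeq2 1.26.0, HISAT2 2.2.1, SAMtools 1.12 and fastp 0.21.1, and the build was hg38. The gene annotation was not given in the sources used here, nor was the strand setting. The deposited values are a signal and, from the values themselves, gene read counts divided by 1 size factor per library (0.971 to 1.04), close to those of the DESeq2 method computed anew from the reads. Reads were recovered by dividing by the step worth 1 read, which gave whole numbers for 100% of values within 1e-06 of a read. No gene in the table had fewer than 4 libraries with 10 or more reads.

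Groups were compared mainly with limma 3.58.1, with a trended and robust variance prior, on log2(value + 1), run in R 4.3.3 with no covariate, and p-values were adjusted by Benjamini-Hochberg over 17546 genes at 0.05. This scale understates changes of low genes. The test edgeR 4.0.16 (quasi-likelihood, TMM) on recovered reads called 11355 of 17410 genes, 11175 of them called in the same direction by limma. Other alternatives were DESeq2 1.42.0, limma-voom, other scalings, pseudocounts of 0.5 and 5, a mean of at least 5 CPM, a threshold of 0.01, a replicate block and leaving out each library. For the paralog ratios the test was an exact permutation of the libraries, two-sided. On simulated data for this comparison, over 17546 genes, limma found 31 of 50 genes with a 1.25-fold change, 40 of 50 at 1.5-fold, 47 of 50 at 2-fold and 50 of 50 at 4-fold, and 7 genes with no change were called. In the simulation 17346 genes had no change, whereas limma called 64.7% of genes in the real comparison. These rates may therefore not carry over to it.

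Symbols and coordinates came from GENCODE release 29 on GRCh38 and a gene name table (17532 IDs with a symbol). The genes named are the members, NAT10, the measured partner subunits, the 2 genes with the smallest adjusted p of each other list and the 3 genes closest to the most changed member. Apart from the rule, POU5F1, SOX2, the mesendoderm markers MIXL1 and CXCR4, WDR5B, the demethylases, ING4, PHF8, RTF1 and SKIC8 were named after their values were seen. The same holds for PAX6, TAGLN, VIM, THY1 and COL6A2. Members and lists were chosen with earlier results of these data known. No libraries looked like 1 library deposited again (chi-square per gene at least 1.78 between any pair), so each was treated as its own sample. This does not show that they came from separate cultures.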

Additional observations from a re-analysis of the deposited data

Results flagged for a closer look

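In 116 groups of 4 values examined, 5 held a library far from the other 3, where chance flags about 5%. KMT2B had 1965.4 normalized counts in knockdown replicate 2, with the other knockdown libraries between 2252 and 2295. RBBP5 had 369.3 in knockdown replicate 4, with the others between 399 and 402. Outside the members, SETD7 had 165.7 in control replicate 3, KANSL2 had 558.0 in knockdown replicate 1 and ACTB had 74372 in control replicate 1.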

How the results depend on the processing

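Over 18 alternatives the 4 members that were higher stayed higher, with log2 fold changes of 0.66 to 0.80 for SETD1B, 0.45 to 0.58 for SETD1A, 0.17 to 0.31 for KMT2D and 0.14 to 0.27 for WDR5, and ASH2L stayed lower (-0.30 to -0.18). KMT2B stayed below 0 (-0.24 to -0.082) and missed the threshold without knockdown replicate 2. Members counted as lower were 5 with library totals and 1 to 3 leaving out 1 library. With library totals, partner subunits counted 2 higher and 2 lower, and H3K4 binding proteins 5 higher. Genes of H2B ubiquitination and PAF1 counted 1 lower with DESeq2, the replicate block or the threshold of 0.01, and 1 to 2 leaving out 1 library. In the main fit the lower genes were RTF1 (log2 fold change -0.23, limma adjusted p = 5.05e-07) and SKIC8 (-0.12, limma adjusted p = 0.0435). SKIC8 lay close to the threshold and its groups overlapped. Signs turned for KMT2A with library totals (-0.093) and over libraries left out (-0.011 to 0.035), for the KMT2C log2 fold change with TMM (-0.0025), library totals (-0.11), edgeR (-0.0082), DESeq2 (-0.0014), limma-voom (-0.0019) and libraries left out (-0.053 to 0.034), for RBBP5 (-0.052 to 0.0011) and MEN1 (-0.014 to 0.021) over libraries left out, and for BOD1L1 with library totals (-0.011). Same-numbered libraries did not vary together (correlation of deviations across genes -0.13 to -0.011), so they share only a number; the replicate block changed no call of a member. As pairs, the ratio differences of 0.15 (KMT2A to KMT2B), -0.28 (KMT2C to KMT2D) and -0.20 (SETD1A to SETD1B) had p = 0.125 in an exact permutation test with the replicate block, the smallest that 4 pairs allow. Leaving out 1 library they ranged from 0.12 to 0.17, -0.31 to -0.26 and -0.23 to -0.17, where 0.0571 is the smallest p possible. Depth limits RBBP5 most, with 360 reads in its lowest library.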
